A study of Mus musculus with 12 samples.

Results

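The comparison described here was that of kidneys after ischemia with kidneys after sham surgery in wild-type mice. Its arrays were taken by sample title, namely the C57BL/10 kidneys titled ischemic (3 arrays) and those titled sham (3 arrays), which are 6 of the 12 arrays in the series. All mice of the series were males bought at 8 weeks of age, and all lost the right kidney at surgery, the sham mice included. In the ischemic group the pedicle of the remaining left kidney was clamped for 23 min under isoflurane, the clip was released, buprenorphine was given, and the whole kidney was taken at 4 h of reperfusion. In the sham group the clip was laid under the pedicle. The other 6 arrays hold the same surgeries, 3 arrays each, in C57BL/10ScNJ mice, which the labels call TLR4 null (without Toll-like receptor 4). They enter here through the shared estimate of the spread and in a closing comparison. Arrays of a group are titled as biological replicates, and pooling of animals is not mentioned.

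Clamping the renal pedicle stops blood flow, and reperfusion returns oxygen to tubular cells whose ATP has run down. The straight proximal tubule and the thick ascending limb lie in the outer medulla, where oxygen is scarce even in health, and these segments are known to be injured most. Stressed cells first make immediate early transcription factors and chaperones, then signals that call in leukocytes and start repair, while genes of transport and mitochondrial metabolism are known to be turned down in injured tubules.

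Expression was measured on oligonucleotide arrays as scaled signal intensities, and 14316 genes had enough signal to be tested, each through its brightest probe set. Fold changes below are differences of log2(signal + 15), ischemic minus sham, from 3 arrays a group, given with the standard error from limma. That error rests on a spread estimated for each gene over the arrays of both genotypes together. It is therefore the same in wild type and TLR4 null mice, and it is not the spread of the wild-type arrays alone. The added 15 understates the folds of dim genes. A gene is said to have risen or fallen only where limma gave an adjusted p under 0.05 over all genes, and it is then called. Signals of different genes come from different probes and are not set against each other. Whole kidneys were measured, so fewer cells of a type and less RNA per cell cannot be told apart.

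The arrays of the groups were well separated. Within a wild-type group, Pearson's r between arrays over all genes was 0.974 to 0.978, and across the groups it was 0.947 to 0.952, and the first principal component held 52.6% of the variance and separated ischemic from sham arrays. Median signals were 66.3 to 69.6 on ischemic and 70.4 to 74.1 on sham arrays. For actin, the 3' control probe set over the 5' one, a sign of RNA length, gave 1.88 to 1.99 on ischemic and 1.68 to 1.82 on sham arrays, the signal of the 18S RNA control was 535 to 574 and 373 to 406, and the part of either in the results was not tested. The same for Gapdh overlapped between the groups (0.653 to 0.688 and 0.662 to 0.697). Kidney identity was clear in all 6 arrays: the summed signal of 15 proximal tubule markers was 117190 to 141560 in ischemic and 123720 to 137530 in sham kidneys, and that of 7 thick ascending limb markers was 39476 to 45445 and 40384 to 50301.

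Ischemia gave few large rises and many small falls. Of the 14316 genes, 2815 (19.7%) were called, 1314 up (9.18%) and 1501 down (10.5%). The rises went further: 346 genes rose at least 2-fold (2.42%), 80 at least 4-fold and 24 at least 8-fold, against 150 (1.05%), 7 and 1 among the falls. The median over the called rises was 0.68 and over the called falls -0.52, beside a median of -0.09 over all genes. When the arrays were scaled to equal medians, the split moved from 46.7% to 66.0% rises, with 1290 genes up and 665 down, and 1224 of the rises but 665 of the falls given above were called again. Counts of falls in the gene lists below therefore carry the count under equal medians where it differs by over 1.5 times. Ischemic and sham arrays did not overlap for 5624 genes (39.3%), 2237 higher (15.6%) and 3387 lower (23.7%) after ischemia. Of the 2815 called genes 2782 had no overlap, so separate groups add little to a call. The 30 largest rises and 30 largest falls below were taken only from genes without overlap.

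Precision followed signal. In the 3579 genes with the lowest mean signal (10.6 to 90.9) the median standard error was 0.32 and 3.69% of genes were called. In the 3579 brightest genes (616 and above) it was 0.10 and 37.5% were called. A dim gene that was not called may therefore have changed below what 3 arrays a group could show.

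The genes that rose most were short ones. Gene span, from the first to the last base with introns included, had a median of 22.1 kb over the 14287 tested genes with a RefSeq span. It was 13.4 kb over the genes that rose at least 2-fold, 7.90 kb over those that rose at least 4-fold and 4.11 kb over the 24 that rose at least 8-fold. Of the latter, 18 of 24 spanned under 10 kb, against 27.1% of all genes tested. The called falls of any size leaned the other way, with a median of 27.6 kb and 21.9% under 10 kb. Those of at least 1.5-fold were at 28.96 kb, but those of at least 2-fold were close to all genes, at 22.95 kb and 28% under 10 kb. Called rises of any size had a median of 22.4 kb, close to that of all genes, so the short span belonged to the large rises. These are descriptions of the gene sets, with no test.

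**Figure D1:**
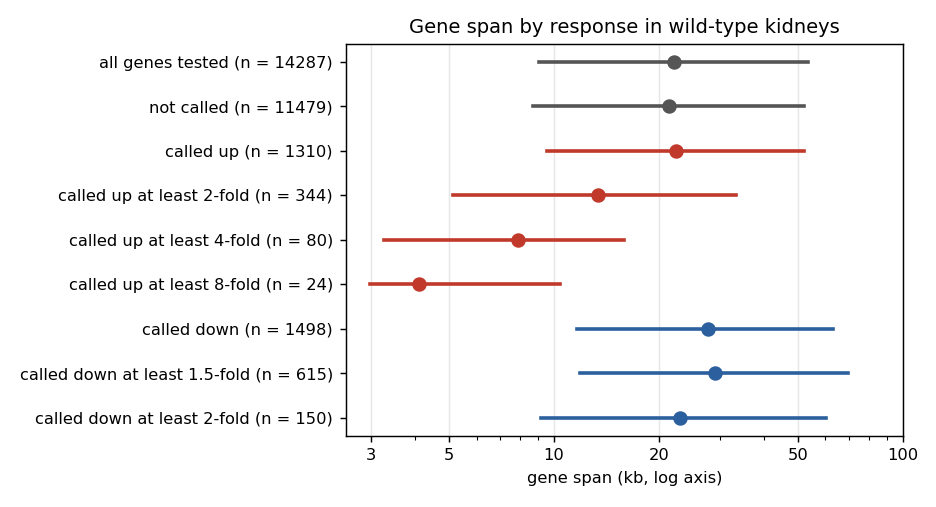
Gene span in kb (log axis) by response of wild-type kidneys, with medians as points and the quartiles as bars, for all tested genes and for genes called up (red) or down (blue) past the folds given. The median falls from 22.1 kb over all genes to 4.11 kb over genes that rose at least 8-fold. Genes called down sit at 27.6 kb, and those that fell at least 2-fold at 22.95 kb.

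The largest rises were of an epithelial keratin and of early transcription factors, and beyond these came co-chaperones, brakes on growth signals and genes of cell shape. Krt20, an intermediate filament keratin of stressed epithelia, gave signals of 4527, 3161 and 5365 in ischemic and 78.9, 66.01 and 63.7 in sham kidneys. The fold change was 5.66 ± 0.40, the largest of the called rises, with no overlap. Ccn1, a secreted matrix protein and target of the YAP pathway, gave 5054, 8095 and 5177 in ischemic and 485, 494 and 479.6 in sham kidneys. The sham arrays hardly differed among themselves, and the fold change was 3.58 ± 0.25. Dnajb1, the HSP40 partner of HSP70, gave 11122, 9916 and 8184 in ischemic and 888, 884 and 793 in sham kidneys (3.48 ± 0.43), and Hspb1, a small heat shock protein that guards actin filaments, gave 11438, 12601 and 10723 in ischemic and 1112, 1279 and 1122 in sham kidneys (3.29 ± 0.34). The groups of both were far apart, with every ischemic array well above every sham array.

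Phlda1, a pleckstrin homology protein induced by growth signals, gave 3667, 3282 and 3440.3 in ischemic and 359.6, 351 and 268 in sham kidneys (3.36 ± 0.15). Ifrd1, a transcriptional co-regulator, gave 5726, 5916 and 5791 in ischemic and 541, 656 and 621 in sham kidneys (3.23 ± 0.14). Both rose with little spread between arrays. Rrad, a small GTPase of the RGK family, was dim in sham kidneys, with 224, 219 and 266 in ischemic and 1.64, 61.4 and 1.79 in sham kidneys (3.18 ± 0.49), and its sham arrays themselves differed widely. Rtel1, a DNA helicase of telomeres, was uneven in the same way, with 965, 746 and 1024 in ischemic and 321, 30.5 and 74.6 in sham kidneys (3.05 ± 0.54). All ischemic arrays of both genes were above all sham arrays, which the choice of the largest rises required. Tubb6, a beta tubulin that appears in regenerating cells, gave 778, 653 and 708 in ischemic and 55.6, 124 and 75.97 in sham kidneys (2.92 ± 0.40), with no overlap.

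Further rises of this size included Hbegf (2.89 ± 0.16), the heparin-binding ligand of the EGF receptor, and Tnfrsf12a (3.11 ± 0.22), the receptor of the cytokine TWEAK. Sprr2f, a small proline-rich protein of the cornified envelope, gave 808, 985 and 1014 in ischemic and 40.1, 25.7 and 52.8 in sham kidneys, and Sprr1a rose by 1.79 ± 0.26 and Sprr2k by 1.30 ± 0.28. The Sprr2 genes are near-identical copies, so their probe sets may share signal. The fourth measured member, Sprr2d, was at -0.44 ± 0.42 (limma adjusted p = 0.517).

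**Figure D2:**
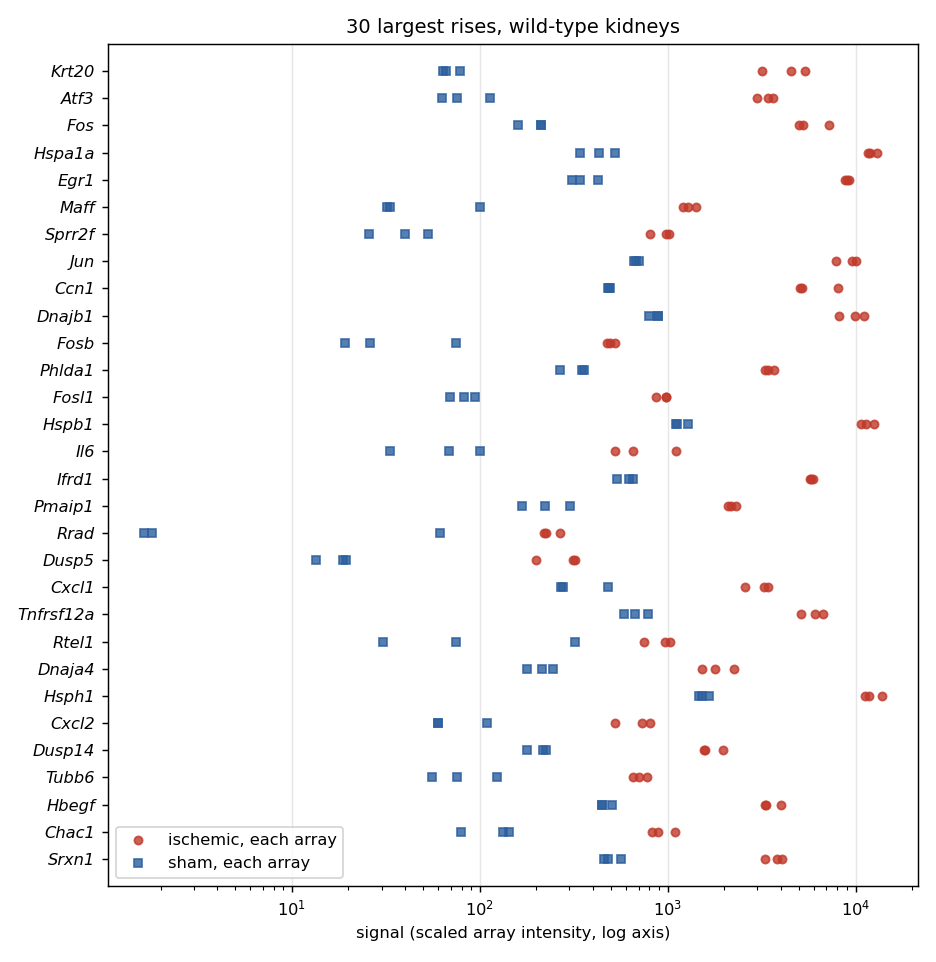
Signals of each wild-type ischemic (red circles) and sham (blue squares) array on a log axis for the 30 called genes with the largest rises and no overlap of groups, predicted genes left out. In every row all 3 ischemic arrays lie to the right of all 3 sham arrays; Krt20 shows the widest gap and Rrad and Rtel1 the widest spread among sham arrays.

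The first wave of transcription factors was high at 4 h across families. Of 20 measured AP-1, ATF and small Maf genes, 14 rose and none fell (median 1.42), and of 13 Egr, Nr4a, Ier and Myc genes 9 rose and none fell (median 1.73), beside 9.18% up among all genes. Fosl1, a later-acting Fos relative, gave 982, 866 and 981 in ischemic and 69.1, 94.6 and 82.2 in sham kidneys (3.31 ± 0.26), and Fosb gave 496, 523 and 476 in ischemic and 74.4, 25.99 and 19.1 in sham kidneys (3.36 ± 0.57). In both, no ischemic array came near the sham arrays. Jun gave 10097, 9624 and 7833 in ischemic and 664, 679 and 703 in sham kidneys and Egr2 gave 325, 251 and 368 in ischemic and 29.7, 49.1 and 58.8 in sham kidneys (2.45 ± 0.23). Atf4, the factor of the integrated stress response, rose by 1.496 ± 0.11, Junb by 1.79 ± 0.15 and Myc by 2.56 ± 0.18. Within the nuclear receptor family Nr4a, Nr4a1 rose by 1.99 ± 0.26 and Nr4a3 by 0.83 ± 0.20, while Nr4a2 was at 0.72 ± 0.35 (limma adjusted p = 0.17).

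Kruppel-like factors, zinc finger regulators of epithelial state, split. Of 16 measured, 5 rose and 1 fell (median 0.05). Klf6, which injured tubules are known to induce, rose by 2.84 ± 0.14, Klf5 by 1.84 ± 0.20 and Klf4 by 1.41 ± 0.16. Klf15, a factor of podocytes and tubules that glucocorticoids induce, fell by 1.52 ± 0.14, with signals of 424, 321 and 332 in ischemic and 1069, 1063 and 1022 in sham kidneys. The groups of Klf15 were tight and far apart.

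Part of the feedback genes of these signals rose. Of 21 dual specificity phosphatases, which switch off MAP kinases, 8 rose and none fell (median 0.12). Dusp5, an ERK phosphatase of the nucleus, was dim in sham kidneys, with 319.9, 198 and 313 in ischemic and 19.5, 13.5 and 18.8 in sham kidneys (3.15 ± 0.23). Dusp14 gave 1968, 1562 and 1576 in ischemic and 224, 179 and 217 in sham kidneys (2.95 ± 0.15), and Dusp8, which acts on JNK and p38, rose by 2.25 ± 0.21. In each of these the groups did not overlap. Of 11 Sprouty, Spred and related regulators 6 rose and none fell (median 0.74), with Spry2 at 1.63 ± 0.14 and Spry4 at 1.40 ± 0.26. Of 17 genes of AU-rich mRNA decay 6 rose and 1 fell: the mRNA-destabilising Zfp36 (tristetraprolin) rose by 1.52 ± 0.17 and Btg2 by 1.80 ± 0.20, the stabilising protein Elavl1 (HuR) rose by 0.61 ± 0.08, and the translational silencer Tia1 fell by 0.78 ± 0.12.

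Promoter sequences are shown for genes that rose and whose start sites hold a textbook element of a stress or growth signal. The RefSeq promoter table (build GRCm38.p6) gives 250 bases before to 50 bases after a start site and covered 11484 of the tested genes and 57 of the 80 that rose at least 4-fold. The AP-1 site TGANTCA, searched on both strands, lay in 14 of these 57 (24.6%), in 117 of the 1068 with a promoter that rose, in 5.22% of those that fell and in 6.98% of all tested genes. The first set holds AP-1 sites, in capitals. Srxn1 encodes sulfiredoxin, F3 tissue factor and Cldn4 a tight junction claudin, and all sequences run 5′ to 3′ along the strand of the gene.

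Srxn1 (chr2:152105274-152105573, plus strand): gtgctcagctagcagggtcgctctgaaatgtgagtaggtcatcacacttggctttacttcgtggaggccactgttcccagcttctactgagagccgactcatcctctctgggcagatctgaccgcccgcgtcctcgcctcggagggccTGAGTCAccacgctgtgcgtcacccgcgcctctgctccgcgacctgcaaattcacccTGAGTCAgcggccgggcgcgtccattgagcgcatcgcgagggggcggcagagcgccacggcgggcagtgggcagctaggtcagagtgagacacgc
F3 (chr3:121723287-121723586, plus strand): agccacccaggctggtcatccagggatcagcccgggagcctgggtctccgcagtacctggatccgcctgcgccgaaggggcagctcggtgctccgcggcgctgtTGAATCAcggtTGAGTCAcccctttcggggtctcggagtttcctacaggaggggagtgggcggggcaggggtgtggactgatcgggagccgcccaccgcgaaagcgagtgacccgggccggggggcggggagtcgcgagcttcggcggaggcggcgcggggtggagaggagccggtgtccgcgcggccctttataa
Cldn4 (chr5:134946885-134947184, minus strand): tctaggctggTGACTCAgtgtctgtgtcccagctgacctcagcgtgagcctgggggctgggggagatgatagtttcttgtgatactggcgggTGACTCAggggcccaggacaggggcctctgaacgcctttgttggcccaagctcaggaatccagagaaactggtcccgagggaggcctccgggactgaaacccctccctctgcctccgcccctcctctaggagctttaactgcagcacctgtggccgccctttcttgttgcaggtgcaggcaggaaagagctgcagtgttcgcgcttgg

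The matches in Srxn1 begin 102 and 45 bases before the start site, those in F3 at 146 and 135 and those in Cldn4 at 240 and 158. Srxn1 gave signals of 3825, 3295 and 4084 in ischemic and 567, 482 and 459 in sham kidneys (2.86 ± 0.12). F3 gave 1074, 1480.3 and 1135 in ischemic and 271, 290.1 and 271 in sham kidneys (2.08 ± 0.14), and Cldn4 gave 1178, 1593 and 1331 in ischemic and 175, 256 and 219.6 in sham kidneys (2.58 ± 0.25). All 3 genes rose with no overlap between the groups. An AP-1 match can lie inside a match to the NRF2 element TGACNNNGC, which was in 15 of the 57 promoters (26.3%) and in 16.7% of all tested genes.

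The next set was chosen for tandem or overlapping elements. The named NF-kB site was in 12 of the 57 promoters (21.1%) and in 12.2% of all tested genes, the CArG box, bound by serum response factor, in 3 (5.26%) and in 1.58%, and the cyclic AMP response element TGACGTCA in 6 (10.5%) and in 3.16%. The neutrophil chemokines Cxcl1 and Cxcl2 lie next to each other on chromosome 5 and carry the same run of capitals, in which 2 matches overlap.

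Cxcl1 (chr5:90890995-90891294, plus strand): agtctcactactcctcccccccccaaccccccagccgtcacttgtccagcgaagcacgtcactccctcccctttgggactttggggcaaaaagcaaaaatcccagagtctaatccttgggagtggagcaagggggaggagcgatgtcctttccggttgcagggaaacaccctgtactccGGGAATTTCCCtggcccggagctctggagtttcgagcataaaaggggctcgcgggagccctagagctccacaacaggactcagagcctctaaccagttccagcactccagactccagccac
Cxcl2 (chr5:90903649-90903948, plus strand): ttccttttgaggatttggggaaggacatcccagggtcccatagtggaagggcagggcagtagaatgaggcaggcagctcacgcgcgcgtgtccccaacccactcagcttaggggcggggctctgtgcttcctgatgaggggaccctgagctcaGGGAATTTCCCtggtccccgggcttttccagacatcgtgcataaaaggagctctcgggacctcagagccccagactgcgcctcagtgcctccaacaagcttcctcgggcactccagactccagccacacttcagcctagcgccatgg
Dusp5 (chr19:53528895-53529194, plus strand): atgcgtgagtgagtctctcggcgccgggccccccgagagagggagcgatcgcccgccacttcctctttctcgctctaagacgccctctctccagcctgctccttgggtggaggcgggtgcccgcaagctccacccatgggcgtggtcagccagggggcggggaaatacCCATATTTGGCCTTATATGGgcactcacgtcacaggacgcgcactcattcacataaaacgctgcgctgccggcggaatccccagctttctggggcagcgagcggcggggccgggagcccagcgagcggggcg

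In Dusp5 the capitals are a pair of abutting CArG boxes that begin 82 and 72 bases before the start. Cxcl1 gave 3259, 3420.4 and 2592 in ischemic and 483, 271 and 279 in sham kidneys (3.15 ± 0.25) and Cxcl2 gave 729, 805 and 525 in ischemic and 109, 60.04 and 59.97 in sham kidneys (2.96 ± 0.23). The ischemic arrays of both chemokines were all above the sham arrays. A match describes these letters only and says nothing of binding in these kidneys.

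Chaperones of the cytosol and their partners were the next large group, and their largest rises exceeded those of chaperones of the endoplasmic reticulum. Over all genes 9.18% rose and 10.5% fell. Of 22 measured Hsp70, Hsp90, Hsp110 and small heat shock genes, 10 rose and 1 fell (none fell under equal medians), and of 41 Dnaj co-chaperones 10 rose and 7 fell (median -0.13; 4 fell under equal medians). Hspa1a gave 11640.0, 12960.0 and 11894 in ischemic and 433, 524 and 339.6 in sham kidneys, and its near-identical copy Hspa1b rose by 2.73 ± 0.26; probe sets of the 2 may share signal. Hsph1, the HSP110 exchange factor, gave 13763, 11749 and 11245 in ischemic and 1472, 1527 and 1663 in sham kidneys (2.96 ± 0.28). The mitochondrial Hspa9 was at 0.21 ± 0.08 (limma adjusted p = 0.0902).

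Among the co-chaperones, those that feed unfolded protein to HSP70 led. Dnaja4 gave 2245, 1790.0 and 1532 in ischemic and 247, 179 and 215 in sham kidneys (3.03 ± 0.34), Dnajb4 rose by 2.09 ± 0.22 and Dnaja1 by 1.77 ± 0.18. Bag3, which hands HSP70 clients to autophagy, gave 2415, 2296 and 1909 in ischemic and 311, 273 and 333 in sham kidneys (2.79 ± 0.34). All ischemic arrays of these 4 genes lay above all sham arrays. Of 19 BAG and other co-chaperones 8 rose and 2 fell, among them Fkbp5, a co-chaperone of the glucocorticoid receptor, by 0.95 ± 0.10. Among the Dnaj genes that fell was Dnajc3 (-0.53 ± 0.09), an ER co-chaperone.

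The mitochondrial chaperonin pair, whose genes share a stretch of promoter DNA, rose. Hspd1 (HSP60) gave 15722, 14136 and 12291 in ischemic and 6885, 6347 and 6973 in sham kidneys (1.05 ± 0.15) and Hspe1 (HSP10) gave 10052, 8537 and 7418 in ischemic and 3808, 3756 and 4558 in sham kidneys (1.09 ± 0.18). The groups of both were separate, with every ischemic array higher. The genes lie head to head, and their promoter windows overlap by 285 of 300 bases. The window of Hspe1 is shown because it holds the heat shock element, of GAA and TTC units in turn, as a pair of overlapping matches on either strand, in capitals, 89 and 84 bases before its start site.

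Hspe1 (chr1:55087898-55088197, plus strand): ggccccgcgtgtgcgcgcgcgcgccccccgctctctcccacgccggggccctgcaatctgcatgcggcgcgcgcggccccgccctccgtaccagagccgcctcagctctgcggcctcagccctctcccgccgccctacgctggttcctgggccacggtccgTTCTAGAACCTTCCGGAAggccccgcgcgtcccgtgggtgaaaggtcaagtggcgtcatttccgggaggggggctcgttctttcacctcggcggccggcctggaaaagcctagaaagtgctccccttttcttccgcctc

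Of 27 chaperone genes that rose and have a promoter in the table, 4 held this element, Hsph1, Chordc1, Hspd1 and Hspe1, against 1 of 42 not called, 0 of 10 that fell and 0.618% of all tested genes. Hspd1 and Hspe1 hold the same stretch of DNA, which is counted for each. No match lay in the windows of Hspa1a, Dnajb1, Hspb1 and Dnaja4, which rose more than Hsph1, or in that of Bag3, which rose less than Hsph1. The cytosolic chaperonin moved little: of 16 CCT, prefoldin and HSP60 genes 6 rose and 1 fell (4 and 0 under equal medians), and beside the pair above the rises were small, as that of Cct7 (0.34 ± 0.08). Of 21 ER chaperones and degradation factors 3 rose (14.3%) and 1 fell (median -0.07), beside 9.18% up over all genes. The rises were of BiP (Hspa5) at 0.86 ± 0.14, Dnajb9 at 0.99 ± 0.08 and the transcription factor Xbp1 at 0.93 ± 0.14.

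The integrated stress response, which slows translation while ATF4 drives amino acid supply, was up in 14 of its 26 measured members and down in 1 (median 0.58). Chac1, which breaks down glutathione, gave 1099, 885 and 827 in ischemic and 133, 79.7 and 143 in sham kidneys (2.86 ± 0.18), and Ddit3 (CHOP) gave 1495, 1733 and 1555 in ischemic and 312, 319 and 293 in sham kidneys (2.32 ± 0.11). Ppp1r15a (GADD34), the phosphatase subunit that restarts translation, gave 726, 805 and 805 in ischemic and 146, 159 and 178 in sham kidneys (2.18 ± 0.12). The groups did not overlap in any of the 3. The amino acid enzyme Asns rose by 1.76 ± 0.18 and Psat1, of serine synthesis, fell by 0.94 ± 0.18. Of 18 cytosolic aminoacyl-tRNA synthetases 8 rose and none fell (median 0.37), led by Aars (1.12 ± 0.14), Yars (0.87 ± 0.16) and Tars (0.88 ± 0.20). Amino acid importers that ATF4 is known to drive rose too, Slc7a1 by 1.39 ± 0.14, Slc38a2 by 1.39 ± 0.10 and Slc1a4 by 1.89 ± 0.36, the last with 177, 209 and 154 in ischemic and 50.03, 12.2 and 65.2 in sham kidneys.

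Many genes that build ribosomes rose, and genes of the ribosome itself rose at about the share of all genes. Of 34 ribosome biogenesis genes 17 rose and 1 fell (median 0.44). Ppan, of large subunit assembly, rose by 1.41 ± 0.21, the snoRNP protein Nop58 by 1.23 ± 0.15, and Tsr1, of small subunit maturation, by 1.11 ± 0.12. Utp20, also of small subunit processing, went the other way (-1.08 ± 0.11), with 588, 538 and 557 in ischemic and 1135, 1320.4 and 1159.8 in sham kidneys and no overlap. Of 44 ribosomal protein genes 4 rose (9.09%) and 2 fell (median 0.09; 2 and 0 under equal medians), beside 9.18% up and 10.5% down over all genes. Many ribosomal protein genes have processed copies that can share probes. Of 38 proteasome subunits 6 rose and 1 fell, the rises being 0.26 to 0.41, and 1 rose and none fell with the arrays scaled to equal medians. Sqstm1 (p62), which carries ubiquitin-tagged protein to autophagy, rose by 0.87 ± 0.11. Trim63 (MuRF1), a ubiquitin ligase best known from wasting muscle, fell by 1.69 ± 0.24, with 227, 352 and 251 in ischemic and 1190.1, 820.4 and 771 in sham kidneys.

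Some RNA processing and chromatin genes rose as well. Of 21 splicing kinases and SR proteins 9 rose and 1 fell (median 0.29; none fell under equal medians), among them Srsf3 (0.82 ± 0.08), the kinase Clk1 (0.88 ± 0.13) and Hnrnpa1 (0.68 ± 0.09). Of 28 chromatin enzymes 10 rose and 3 fell (median 0.17; 1 fell under equal medians). Brd2, a reader of acetylated histones, rose by 1.24 ± 0.09, the demethylase Kdm6b by 1.19 ± 0.13 and Jmjd6 by 1.34 ± 0.11. The deacetylase Sirt1 rose by 0.74 ± 0.12. Of 274 numbered zinc finger genes 15 rose and 23 fell (5.47% and 8.39%; 15 fell under equal medians), beside 9.18% and 10.5% over all genes.

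Many genes of cell shape and adhesion rose. Of 28 SRF and actin cytoskeleton genes 19 rose and none fell (median 0.58) and of 18 YAP and TEAD targets 9 rose and none fell (median 0.40). Vcl (vinculin), which ties actin to adhesion sites, gave 2765, 2327 and 2779.7 in ischemic and 1178, 1299 and 1150.4 in sham kidneys (1.10 ± 0.10). Spread within groups was small, and the groups were separate. Ankrd1, a YAP target, rose by 2.11 ± 0.30 and Gadd45b by 1.74 ± 0.19, while Yap1 itself was at 0.25 ± 0.09 (limma adjusted p = 0.0586).

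Among keratins the simple epithelial ones carried the rises: of 26 measured 6 rose and none fell (median -0.02). Krt8 gave 8346, 6994 and 7639 in ischemic and 1989, 2055 and 2017 in sham kidneys (1.91 ± 0.08) and its partner Krt18 rose by 1.81 ± 0.21. Krt19 gave 282, 311 and 451 in ischemic and 56.5, 164 and 31.97 in sham kidneys (2.08 ± 0.38), Krt23 rose by 1.56 ± 0.35 and Krt7 by 0.54 ± 0.10. The groups did not overlap for any of the 6. Claudins, which set the permeability of tight junctions, split: of 16, 4 rose and 3 fell. Cldn7 rose by 1.45 ± 0.13 and Cldn1 by 0.95 ± 0.19 beside Cldn4. Cldn2, the cation pore of the proximal tubule, fell by 0.71 ± 0.09, with 3201, 3298 and 2733 in ischemic and 4858, 5365 and 4850.4 in sham kidneys, and Cldn8 by 0.62 ± 0.14. Integrins of epithelia rose, Itga6 by 1.64 ± 0.11, Itgb6, which activates TGF-beta, by 1.59 ± 0.14 and Itga3 by 1.13 ± 0.14, among 27 laminin, integrin and matricellular genes of which 8 rose and 1 fell (median 0.30; none fell under equal medians). Thbs1 (thrombospondin 1) gave 1138, 1089.9 and 1120.3 in ischemic and 244, 284 and 242 in sham kidneys (2.06 ± 0.14).

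Growth factor pathways gave mixed counts. Of 34 TGF-beta, BMP and Id genes 10 rose and 3 fell (median 0.24). Inhbb, the activin B subunit, gave 458, 351 and 425 in ischemic and 81.5, 104 and 119 in sham kidneys (1.88 ± 0.17), and the inhibitory Smad7 rose by 0.97 ± 0.14. The groups of Inhbb did not overlap. Id2 rose by 0.88 ± 0.13. Of 35 Wnt and Notch genes 2 rose and 8 fell, 5 with the arrays scaled to equal medians. Lfng, a Notch glycosyltransferase, fell by 1.20 ± 0.23 and the secreted Wnt inhibitor Sfrp1 by 0.90 ± 0.13. Of 12 EGF receptor ligands and receptors 3 rose and 1 fell: beside Hbegf, Nrg1 rose by 1.09 ± 0.22 and Rhbdf1 by 0.64 ± 0.08, and Erbb3 fell by 0.56 ± 0.11. The receptor Egfr (-0.24 ± 0.12, limma adjusted p = 0.186) and the kidney's abundant ligand Egf (-0.19 ± 0.14, adjusted p = 0.391) were not called.

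Genes of cell survival and growth arrest moved in both directions. Of 21 p53 targets 10 rose and 4 fell (median 0.45; 2 fell under equal medians). Pmaip1 (NOXA), which binds MCL1 to promote apoptosis, gave 2180.3, 2096 and 2300.1 in ischemic and 303, 222 and 168 in sham kidneys (3.20 ± 0.30), and Mcl1, its survival partner, gave 6207, 7111 and 6437 in ischemic and 2641, 2543 and 2445 in sham kidneys (1.37 ± 0.09). Both rose without overlap. The stress kinase Plk3 rose by 2.60 ± 0.13 and the cell cycle inhibitor Cdkn1a (p21) by 0.95 ± 0.16. Trp53inp1, another p53 target, fell by 0.99 ± 0.13. Of 16 BCL2 family genes 3 rose and 4 fell (2 under equal medians), among the falls the apoptotic Bmf (-1.23 ± 0.14) and Bid (-0.63 ± 0.12). Of 27 cell division genes 2 rose and 3 fell, with the cyclin Ccnd2 at 0.68 ± 0.16 and the helicase subunit Mcm7 at -0.53 ± 0.11.

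Among oxidant defence genes, several NRF2 targets rose and most other enzymes were not called. Of 19 NRF2 targets 6 rose and 1 fell (median 0.18; none fell under equal medians), and of 18 other oxidant enzymes none rose and 1, Prdx3, fell (-0.33 ± 0.08), a call that was lost under equal medians. Osgin1 gave 1809, 1602 and 1608 in ischemic and 484, 342 and 358 in sham kidneys (2.06 ± 0.19) and Txnrd1, thioredoxin reductase, gave 4528, 3533 and 3920.3 in ischemic and 1698, 1594 and 1815 in sham kidneys (1.22 ± 0.09). The groups of both were apart. Hmox1, which degrades heme, was uneven between sham arrays, with 3169.6, 2364 and 2492 in ischemic and 395, 413 and 1493 in sham kidneys (2.05 ± 0.52), and its call was lost without sham replicate 1 (1.73, limma adjusted p = 0.0565) or 2 (1.76, limma adjusted p = 0.0537). The metal-binding Mt1 and Mt2 rose by 0.85 ± 0.09 and 1.09 ± 0.11, while the zinc importer Slc39a8 fell by 0.89 ± 0.11.

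Inflammatory signals were those of NF-kB, IL-6 and neutrophil chemokines, and no interferon-stimulated gene passed the test. Of 19 NF-kB subunits and feedback genes 10 rose and none fell (median 0.43), of 26 chemokines 7 rose and 2 fell, and of 25 genes of the IL-6, STAT3 and SOCS axis 9 rose and 3 fell (1 under equal medians). Relb, which partners NFKB2, gave 102, 91.7 and 146 in ischemic and 9.31, 40.1 and 8.54 in sham kidneys (2.00 ± 0.37), and Nfkbiz rose by 2.18 ± 0.12. Il6 gave 655, 1109.8 and 525 in ischemic and 100.3, 33.4 and 68.7 in sham kidneys (3.26 ± 0.37). The IL-6 relative Lif rose by 1.83 ± 0.35 and the receptor chain Osmr by 0.88 ± 0.10. Socs3, the brake on STAT3, gave 1596, 1728 and 2279.5 in ischemic and 287, 301 and 333 in sham kidneys (2.53 ± 0.24), with no overlap. The summed signal of 9 neutrophil markers was 1162 to 1704 in ischemic and 775 to 951.6 in sham kidneys. Only 4 of the 9 had a higher mean after ischemia, 2 of them called, and the list median was -0.22. The part of neutrophils in these rises was not tested.

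The chemokine falls were of Ccl28, a mucosal chemokine, with 214, 157 and 229 in ischemic and 508, 416 and 718 in sham kidneys (-1.37 ± 0.19), and of Cxcl12. Of 12 IL-1 family and inflammasome genes 2 rose, among them the alarmin Il33 (0.79 ± 0.12), while Il1b was at 0.19 ± 0.20 (limma adjusted p = 0.566). None of 18 interferon-stimulated genes and none of 17 MHC genes was called in limma, with list medians of 0.11 and 0.00 and 2 of each at an unadjusted p under 0.05. With the arrays scaled to equal medians 2 and 1 rose. Of 21 complement genes none rose and 2 fell, among them C8a (-1.07 ± 0.16). Ptgs2 (COX-2), the inducible prostaglandin synthase, gave 299, 285 and 300.1 in ischemic and 28.8, 47.3 and 14.2 in sham kidneys (2.85 ± 0.40), and the prostaglandin E receptor Ptger3, of the thick limb, fell by 1.35 ± 0.16.

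Vessel and clotting genes changed in both directions. Of 24 VEGF, angiopoietin and apelin genes 7 rose and 6 fell. The summed signal of 11 endothelial markers was 4758 to 6003 in ischemic and 6248 to 7581 in sham kidneys, and its part in the falls was not tested. Sphk1, which makes sphingosine 1-phosphate, gave 873, 918 and 933 in ischemic and 222, 237 and 213 in sham kidneys (1.95 ± 0.13), with the groups far apart. Apela (Elabela), a peptide of the kidney epithelium, gave 107, 94.4 and 113 in ischemic and 442, 725 and 547 in sham kidneys (-2.27 ± 0.15), while Apln, the other ligand of the apelin receptor, rose by 0.96 ± 0.22. So the ligands of 1 receptor moved in opposite directions. Of 19 coagulation and fibrinolysis genes 8 rose and 1 fell: the urokinase receptor Plaur rose by 1.64 ± 0.20, the plasminogen receptor S100a10 by 1.74 ± 0.14 and thrombomodulin (Thbd) by 1.11 ± 0.13, and the fibrinogen chain Fga fell by 1.18 ± 0.20. Of 10 ADAMTS proteases 3 rose, Adamts1 (2.52 ± 0.16), Adamts4 (1.52 ± 0.31) and Adamts9 (0.77 ± 0.19). Timp1 rose by 1.02 ± 0.19 and Mmp10 by 1.85 ± 0.30. Of 33 collagens 2 rose and 3 fell, the falls including Col4a3 (-0.67 ± 0.10) and Col4a4 (-0.78 ± 0.13), chains of the glomerular basement membrane.

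The falls were led by Upp2 and by genes of tubular metabolism and hormone response. Upp2, a uridine phosphorylase, gave 179, 128 and 115 in ischemic and 1254, 1485 and 1198 in sham kidneys (-3.11 ± 0.21), whereas its relative Upp1 rose by 0.70 ± 0.13. Slc16a9, a carnitine and monocarboxylate carrier, gave 652, 707 and 539 in ischemic and 3133, 3046 and 2782 in sham kidneys (-2.22 ± 0.18). G6pc, which releases glucose, gave 2939.8, 3322 and 2962 in ischemic and 10650.0, 13018 and 12139 in sham kidneys (-1.95 ± 0.13). In all 3 the ischemic arrays lay far below the sham arrays. Igfbp1, an insulin-like growth factor binding protein that FOXO factors drive, gave 532, 576 and 279 in ischemic and 1109, 3855 and 2542 in sham kidneys (-2.29 ± 0.40). Its sham arrays were the most uneven of these, and lay above the ischemic ones as the choice of the largest falls required.

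Further down the order, Ackr4, a scavenger receptor of chemokines, gave 197, 172 and 121 in ischemic and 606, 646 and 641 in sham kidneys (-1.88 ± 0.25), and Omd, a small leucine-rich proteoglycan, gave 79.2, 56.4 and 64.04 in ischemic and 234, 284 and 336 in sham kidneys (-1.87 ± 0.22). Ttpa, the tocopherol (vitamin E) transfer protein, gave 361, 237 and 307 in ischemic and 1009, 1039 and 985 in sham kidneys (-1.71 ± 0.18). The groups did not overlap in these. Slc7a12 gave 114, 94.4 and 121 in ischemic and 375, 566 and 297 in sham kidneys (-1.74 ± 0.30) and Clec2d, a ligand of a natural killer cell receptor, gave 379, 299 and 344 in ischemic and 960.3, 1324 and 1364 in sham kidneys (-1.78 ± 0.19). Hpd, of tyrosine breakdown, gave 1186, 721 and 730.0 in ischemic and 2023, 3044 and 2777 in sham kidneys (-1.57 ± 0.18). Several others of the 30 largest falls were dim, among them Wscd2, Cep128, Rec8 and Lrrn1, each under 50 on every ischemic array.

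**Figure D3:**
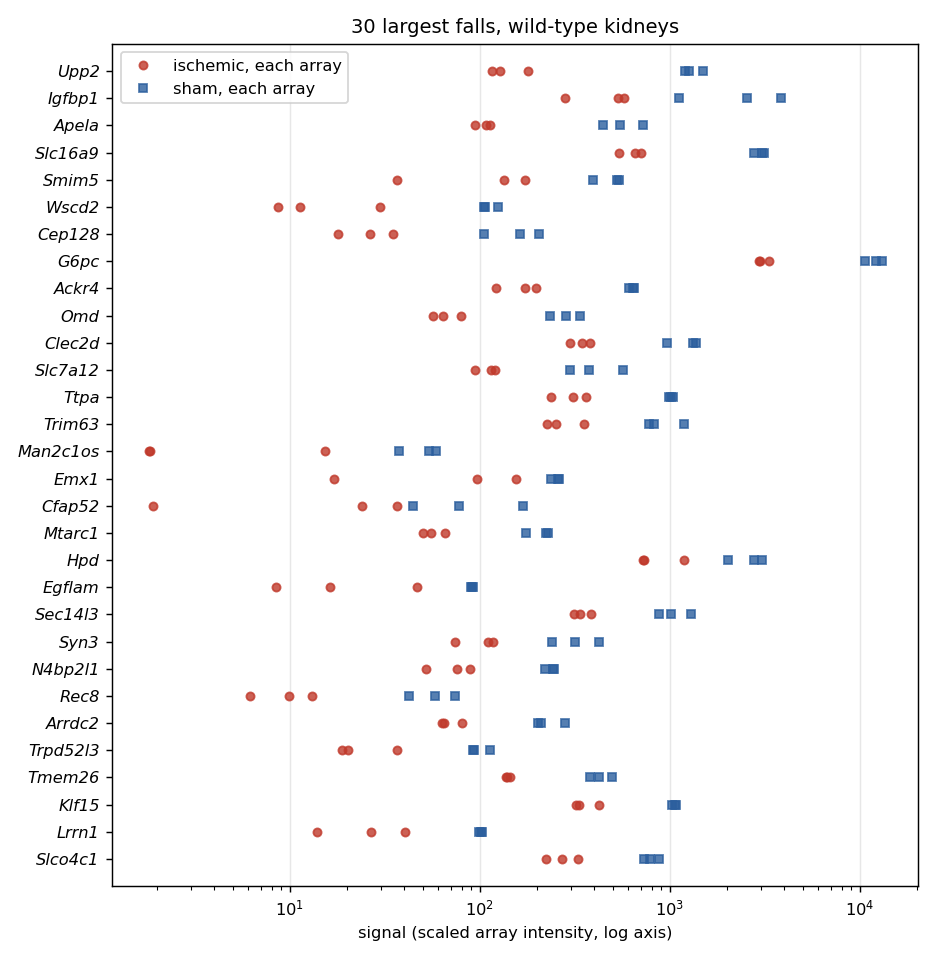
Signals of each wild-type ischemic (red circles) and sham (blue squares) array on a log axis for the 30 called genes with the largest falls and no overlap of groups, predicted genes left out. In every row the ischemic arrays lie to the left of the sham arrays; Upp2, Slc16a9 and G6pc combine bright sham signals with wide gaps.

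Transcripts of many genes for catabolism in mitochondria and peroxisomes fell, fewer of them under equal medians. Among 26 genes for oxidising fatty acids, with PPARA, 17 fell and 1 rose (median -0.33), of 33 genes of amino acid breakdown 17 fell and none rose (median -0.32), and of 22 peroxisomal genes 9 fell and none rose (median -0.28), beside 10.5% down among all genes. With the arrays scaled to equal medians 7, 7 and 3 fell. Ppara, the receptor that drives fatty acid oxidation, gave 703, 901 and 589.7 in ischemic and 1353, 1425 and 1265 in sham kidneys (-0.89 ± 0.17). Cyp4a14, its target, gave 1124, 1162 and 1284 in ischemic and 2553, 3148 and 2881 in sham kidneys (-1.25 ± 0.29), with little spread within groups. The acyl-CoA thioesterases parted: Acot1 fell by 1.05 ± 0.11 and Acot2, its near-identical mitochondrial copy, rose by 0.92 ± 0.13, although probe sets of near-identical genes can share signal.

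In amino acid breakdown Kmo, of the kynurenine path, gave 778, 805 and 633 in ischemic and 1775, 1413 and 1681 in sham kidneys (-1.12 ± 0.12) and Gldc, of glycine cleavage, gave 922, 1191 and 774 in ischemic and 1984, 2233 and 1992 in sham kidneys (-1.11 ± 0.15). Prodh, proline dehydrogenase, fell by 0.73 ± 0.13. All ischemic arrays of these lay below the sham arrays. In peroxisomes Pex11a, which divides them, fell by 0.97 ± 0.09, and the membrane proteins Pxmp2 and Pxmp4 fell by 0.85 ± 0.09 and 0.85 ± 0.11. The respiratory chain was close to all genes in its share of falls: of 80 subunits 9 fell (11.25%) and none rose (median -0.13). Over all genes 10.5% fell and 9.18% rose, with a median of -0.09. The called falls of the subunits were 0.22 to 0.63 in size, and 1 fell with the arrays scaled to equal medians and 28 after quantile normalization. Of 21 genes of the tricarboxylic acid cycle 8 fell, and none with equal medians (9 were at an unadjusted p under 0.05 as deposited). Of 40 mitochondrial carriers 11 fell (6 under equal medians) and 1 rose, Slc25a24, the calcium-regulated ATP-Mg carrier, by 1.36 ± 0.20, with 986, 862 and 1150.2 in ischemic and 369, 474 and 307 in sham kidneys.

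As deposited, more genes of glucose metabolism and hypoxia fell than rose. Of 15 genes of gluconeogenesis 5 fell and none rose: beside G6pc, its partner transporter Slc37a4 fell by 0.88 ± 0.11 and Pck1 by 0.58 ± 0.14. Of 29 genes of glycolysis and hypoxia 4 rose and 7 fell (2 under equal medians). The glucose transporter Slc2a1 rose by 0.77 ± 0.09, Hif1a by 0.56 ± 0.13 and Adm (adrenomedullin) by 1.07 ± 0.14, while Pdk1 fell by 0.81 ± 0.12 and Pfkm by 0.63 ± 0.15. Of 42 cytochrome P450 genes 7 fell and 1 rose, and of 33 conjugation enzymes 7 fell (3 under equal medians), led by Sult1a1 (-1.22 ± 0.18).

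Insulin and IGF genes were lower in part, and glucocorticoid-responsive genes split. Of 23 insulin, IGF and FOXO genes none rose and 8 fell, among them the receptor Igf1r (-0.66 ± 0.11), the adaptor Irs1 (-0.91 ± 0.12) and Foxo3 (-0.84 ± 0.11). Of 16 glucocorticoid-responsive genes 5 rose and 5 fell (median -0.01). Tsc22d3 (GILZ), a direct target of the receptor, gave 1317, 1089 and 1519 in ischemic and 3213, 3729 and 3326 in sham kidneys (-1.39 ± 0.12), and Zbtb16 fell by 1.04 ± 0.15 beside Fkbp5 and Pdk4 (-0.77 ± 0.12). Those that rose included Lcn2 (2.56 ± 0.25) and Cebpd (1.25 ± 0.22). The receptor Nr3c1 itself was at 0.24 ± 0.12 (limma adjusted p = 0.179).

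Several transcription factors of nephron identity fell. Of 28 measured 12 fell and 2 rose (median -0.28), and 10 fell with the arrays scaled to equal medians. Hnf4a, the master factor of the proximal tubule, gave 3874, 3485 and 3275 in ischemic and 5262, 5175 and 5313 in sham kidneys (-0.57 ± 0.08). Pou3f3, of the loop of Henle and distal tubule, gave 975, 916 and 923 in ischemic and 1568, 1793 and 1596 in sham kidneys (-0.81 ± 0.08), and Tfcp2l1, of the collecting duct, gave 1115, 1281 and 1031 in ischemic and 2116, 2007 and 2117 in sham kidneys (-0.86 ± 0.11). The groups did not overlap in any of them. Tfap2b fell by 0.93 ± 0.11 and Lhx1 by 0.97 ± 0.15.

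Transporters and segment genes were lower in part. Of 20 genes of the thick limb and distal tubule 7 fell and none rose (median -0.30), of 22 genes of the collecting duct 6 fell (3 under equal medians; median -0.26), and of 21 sodium-coupled transporters of the proximal tubule 5 fell (3 under equal medians) and 4 rose (median -0.08). The summed signal of 5 distal convoluted tubule markers was 14435 to 17261 in ischemic and 18318 to 23084 in sham kidneys. Kcnj1 (ROMK), the potassium channel that salt uptake in the thick limb needs, gave 730.0, 790.5 and 766 in ischemic and 1530.0, 1538 and 1635 in sham kidneys (-1.03 ± 0.09), and Wnk1, a kinase that sets sodium chloride transport, gave 3865, 3718 and 3886 in ischemic and 5759.5, 7196 and 6684 in sham kidneys (-0.77 ± 0.08). Bsnd (barttin), a chloride channel subunit, fell by 1.01 ± 0.15. Slc12a1, the transporter that defines the thick limb, was at -0.24 ± 0.11 (adjusted p = 0.14) and Umod at 0.06 ± 0.11 (adjusted p = 0.767), both not called in limma.

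Among the listed sodium-coupled transporters, measured here in whole kidney, the phosphate carrier Slc20a1 (PiT1) gave 2519.7, 2546 and 2201 in ischemic and 651, 654 and 668 in sham kidneys (1.86 ± 0.15). The bile acid carrier Slc10a2 rose by 1.499 ± 0.19, whereas the lactate carrier Slc5a8 fell by 0.73 ± 0.07 and the ascorbate carrier Slc23a1 by 0.63 ± 0.08. Of 28 organic anion and cation transporters 8 fell and 3 rose, with Slco4c1 at -1.503 ± 0.14 and Slc22a19 at -1.01 ± 0.13. Of 28 amino acid transporters 11 fell (5 under equal medians) and 5 rose, among the falls the taurine carrier Slc6a6 (-1.35 ± 0.14), with 962, 1179 and 785 in ischemic and 2168, 2605 and 2705 in sham kidneys. Of 10 renin-angiotensin and kallikrein genes 5 fell and none rose, led by the peptidase Mme (-0.66 ± 0.09), and 1 fell under equal medians.

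**Figure D4:**
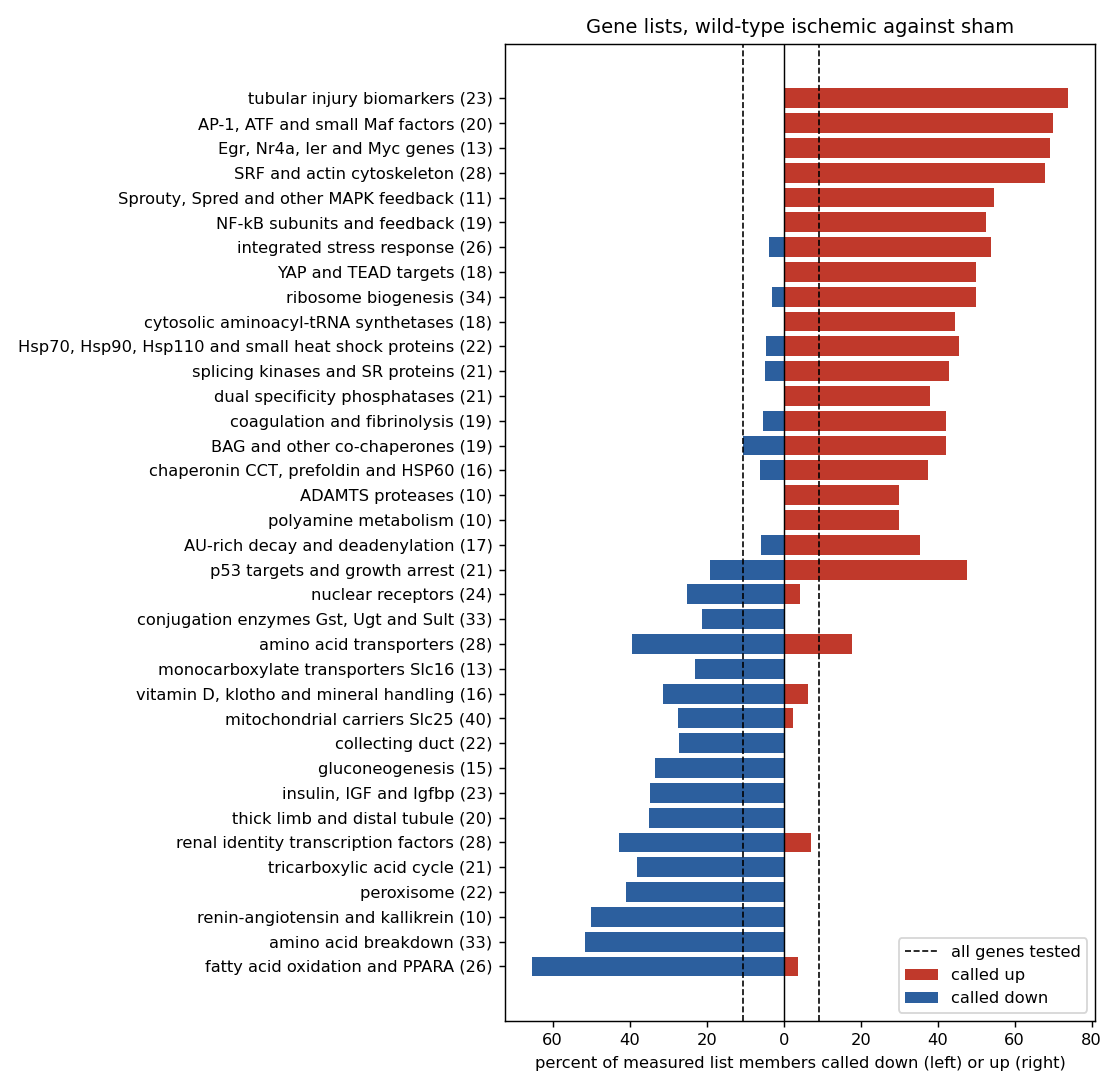
Percent of the measured members called up (red, right) or down (blue, left) in wild-type kidneys, with signals as deposited, for 20 of the lists with the greatest excess of rises and the 16 with the greatest excess of falls among lists of at least 10 measured members (number in brackets); dashed lines mark 9.18% up and 10.5% down over all genes. Tubular injury biomarkers and AP-1 factors stand at the top and fatty acid oxidation and amino acid breakdown at the bottom.

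Markers of other cells were called in some lists and not in others, beside 19.7% called over all genes. Of 9 neutrophil markers S100a8 (1.34 ± 0.21) and S100a9 (1.52 ± 0.22) rose, and the granule genes Mpo, Elane, Ltf and Ngp were not called and had lower means after ischemia. Of 11 macrophage markers Cd68 rose (0.94 ± 0.19) and Csf1r fell (-0.35 ± 0.09; not called under equal medians), and their sum was 2880.5 to 3035 in ischemic and 3263 to 3423 in sham kidneys. Of 3 platelet markers Pf4 rose by 0.64 ± 0.14 and Ppbp by 1.28 ± 0.30, while Itga2b was at -0.44 and was not called. All 3 were at an unadjusted p under 0.05 in limma. None of 3 T and NK cell, 4 B cell, 2 erythroid, 5 fat, 5 adrenal, 5 podocyte and 2 skeletal muscle markers was called in limma, and 3 of these 26 were at an unadjusted p under 0.05. Of 11 endothelial markers 3 fell (1 under equal medians), led by Tek (-1.07 ± 0.13), and of 6 smooth muscle and pericyte markers 1 rose. The summed fat markers ran from 4356 to 12938 on ischemic and from 5413 to 9180 on sham arrays, wider within than between the groups, and with their score as a covariate 2714 genes were called. The part of these cells in the gene changes was otherwise not tested.

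Probe sets of 1 gene were rarely called in opposite directions. Of 30304 probe sets tested 4735 were called (15.6%), 2337 up and 2398 down, and under equal medians 2309 were up and 1085 down. As deposited, 473 of the calls had no single gene name. Among 6422 genes with several tested probe sets, 216 had all called up, 180 all called down, 1658 some called in 1 direction and 4356 none. Only 12 had probe sets called in opposite directions. The widest was Zfp763, with a probe set at 1.52 ± 0.49 and another at -1.09 ± 0.20. In Trim8 they were at 0.55 ± 0.15 and -1.28 ± 0.33, and in Qk, an RNA-binding protein with several 3' ends, at 0.78 ± 0.10 and -0.45 ± 0.13. Of 230 genes with a change of at least 2-fold and several probe sets, 197 had all their probe sets on the same side of 0.

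Most wild-type changes had the same direction in TLR4 null mice, whose arrays share no sample with those above. The calls of both genotypes rest on the same estimate of each gene's spread, so they are not independent. In TLR4 null mice 3088 genes were called (21.6%), 1412 up (9.86%) and 1676 down (11.7%), which became 1179 up and 1033 down under equal medians. As deposited, 1932 genes were called in the same direction in both genotypes, 68.6% of the wild-type calls and 62.6% of the TLR4 null calls. Of the 346 genes that rose at least 2-fold in wild type 315 were also called up in TLR4 null mice, and of the 150 falls 103 were also called down. Over the 2815 genes called in wild type, 2730 (97.0%) had the same sign, beside 69.0% of the genes not called in wild type. Across the 14316 genes the fold changes correlated at r = 0.727, a description, since genes are not independent replicates.

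Values of single genes are given side by side for the genotypes. The TLR4 null ischemic arrays stood apart in the 18S RNA control, at 1410 to 2646, against 304 to 476 on TLR4 null sham arrays and the wild-type values above, and the part of this in the results was not tested. Upp2 was at -3.11 ± 0.21 in wild type and -2.64 ± 0.21 in TLR4 null mice, Slc16a9 at -2.22 ± 0.18 and -2.28 ± 0.18, and Ifrd1 at 3.23 ± 0.14 and 3.17 ± 0.14. Dnaja4 was at 3.03 ± 0.34 and 1.35 ± 0.34, Dnajb1 at 3.48 ± 0.43 and 2.17 ± 0.43, Slc7a12 at -1.74 ± 0.30 and -0.07 ± 0.30, and Cep128 at -2.03 ± 0.31 and -0.24 ± 0.31. The TLR4 null ischemic arrays were uneven for both Dnaj genes, with signals of 4824, 1498 and 9881 for Dnajb1 and 961, 325 and 1299 for Dnaja4, against 1094, 827 and 836 and 267, 310.1 and 275 in TLR4 null sham kidneys. Every TLR4 null ischemic array was still above the sham arrays of its genotype. The test of such differences, the interaction, called 0 of 14316 genes in limma, with 910 at an unadjusted p under 0.05 and a smallest adjusted p of 0.244. The 5 genes with the smallest p there were Apoc3, 4932431P20Rik, Prepl, Rpl27a and Mapre2. Apoc3, an apolipoprotein, was at -1.31 ± 0.11 in wild type and -0.32 ± 0.11 in TLR4 null mice. Rpl27a, a ribosomal protein, was at -0.72 ± 0.19 and 0.74 ± 0.19, and its wild-type call was lost without sham replicate 3 (-0.59, limma adjusted p = 0.0798). Leaving out 1 array, replicate 3 of the TLR4 null ischemic kidneys, gave 15 interaction calls, among them Rpl27a and Apoc3, and no other array left out gave any.

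**Figure D5:**
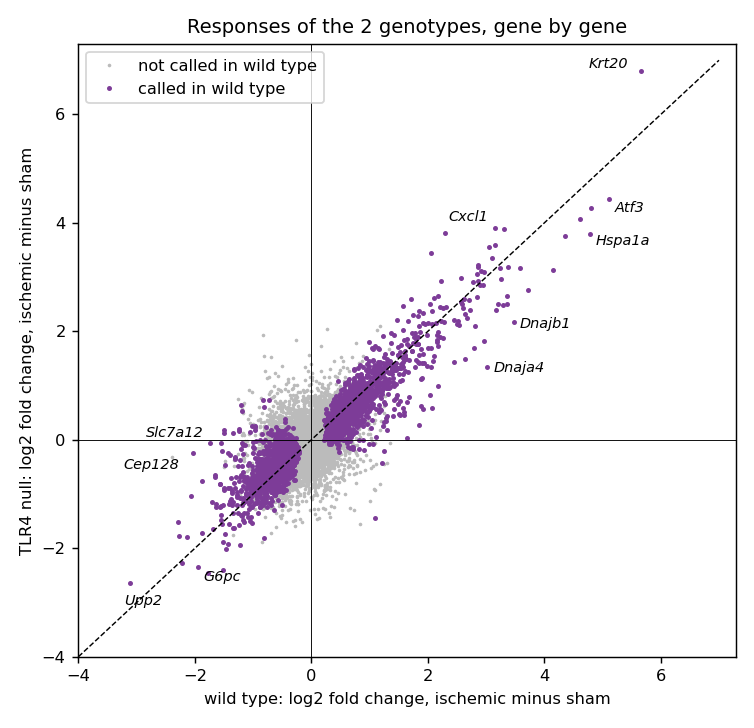
Log2 fold change, ischemic minus sham, of each tested gene in wild type (x axis) and TLR4 null mice (y axis), with genes called in wild type in purple and the rest in grey; the dashed line marks equal responses. Of the purple points, 2730 of 2815 have the same sign in both, from Upp2 at -3.11 to Krt20 at 5.66 in wild type, with Dnaja4 and Hspa1a below it and Slc7a12 and Cep128 near 0 in TLR4 null mice.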

How the data were processed

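Whole-kidney RNA from 12 mice was measured on 1 oligonucleotide array each. Per the submitters' processing notes, the authors deposited linear signal intensities made with MAS5, whose version is not given in the sources used here. On every array the mean of the middle 96% of the deposited values was 250.0, so levels are relative to each array's whole. The values were taken to log2 as log2(signal + 15), probe sets had to exceed the array's 40th percentile on at least 3 of 12 arrays, and the brightest probe set stood for a gene. Group means were fitted over all 12 arrays with limma 3.58.1 (R 4.3.3; lmFit, eBayes with trend, 8 residual degrees of freedom), two-sided, with Benjamini-Hochberg adjustment over 14316 genes at 0.05. The number of arrays limits the precision, and the code was tested on simulated data. Nothing beyond the labels says how animals were handled between replicates, so p-values measure the spread between these arrays.

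The genes described and the gene lists were chosen with earlier results of these data known. Named genes are the 30 largest rises and 30 largest falls called without overlap between groups (predicted genes left out), the up to 6 list members of lowest p in each list, or every member of a list with at most 12 measured, the 5 smallest interaction p-values, and up to 8 genes with probe sets called in opposite directions. Apln, Cdkn1a, Cebpd, Fga, Hmox1, Hspa9, Nr3c1, Nr4a2, Nr4a3, Psat1, Slc1a4 and Yap1 fall outside it and were chosen after their values were seen. Not every gene the rule gives is described, and 1 gene list is not reported here. Replicate numbers did not pair the arrays: the correlations of same-numbered deviations were -0.005, -0.014 and 0.018 in wild type.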

Additional observations from a re-analysis of the deposited data

How the results depend on the processing

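The wild-type count of 2815 called genes stayed within 1.5 times under every alternative run, from 1955 with the arrays scaled to equal medians to 3476 with array weights, and from 2062 to 2469 with 1 wild-type array left out. Of the 2815 calls 1635 (58.1%) and of the 496 calls of at least 2-fold 434 held without each of the 6 arrays in turn. With a replicate block, although the numbers do not pair the arrays, 2723 genes were called. Probe sets called numbered 4735, and 3394 with equal medians. Alternatives chosen after seeing the data were the score of fat cell markers as a covariate (2714 genes), the 6 wild-type arrays with a replicate block (2702) and both scalings of the probe sets. The TLR4 null count of 3088 also stayed within 1.5 times under all alternatives run for it. The interaction count of 0 ranged from 0 to 15 with 1 array left out and was 0 under the other alternatives. Of the 222 called genes named, 7 lost the call under at least 1 alternative; this is no measure of stability, because most genes that the naming rule gave but whose calls were lost with an array left out or another scaling were left unnamed after their values were seen. Single genes that changed sign: Egfr was at 0.23 with the mean of its probe sets, Trim8 was at -0.066 with the mean of its probe sets, Umod was at -0.090 after quantile normalization, Umod ranged from -0.036 to 0.13 with 1 array left out (negative without sham replicate 1) and Zfp763 was at 0.22 with the mean of its probe sets. The cause was not tested. Dim genes limit the depth of these data: standard errors were widest among the 3579 genes of lowest signal.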
